A study of Mus musculus with 7 samples.

Results

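The genes described here make prostaglandins and leukotrienes, lipid mediators of inflammation, and were chosen by symbol: Ptgs1, Ptgs2, Ptges, Hpgds, Alox5, Alox5ap, Lta4h, Ltc4s and Pla2g7. All 9 have a row in each of the 7 count matrices, which share 27514 genes. They were followed in neutrophils and in monocytes and macrophages of the mouse heart, before and after a myocardial infarct.

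Cells came from hearts of C57BL6/J mice, with permanent ligation of a left coronary artery as the injury. The first experiment sorted CD45+ leukocytes of male mice without surgery (steady state, 5 mice pooled) and on day 1, day 3 and day 5 after infarction (5 mice pooled each) and day 7 (3 mice pooled), with a step that lowered neutrophil numbers. The second sorted CD11b+ myeloid cells of male mice on day 1 (5 mice), day 3 (5 mice) and day 5 (3 mice), with a hashtag antibody per day, into 1 pooled library. In both, an intravenous anti-CD45.2 antibody had marked blood cells for removal, and the infarct, its border and the adjacent myocardium were digested warm with collagenase. Another library pooled CD11b+ cells of blood and heart from mice aged 8 to 10 weeks under 7 hashtags (no surgery, sham on day 1 and day 3, infarct on day 1 and day 3). There, blood stayed on ice and heart tissue was broken up mechanically, and no label read here pairs its hashtags with a condition or tissue, so it enters no test and its levels are given as ranges. The strain carries no transgene in the labels, and the steady-state mice had no sham operation.

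Arachidonic acid, released from membranes by phospholipases, feeds both routes. Cyclooxygenases, Ptgs1 (mostly constitutive) and Ptgs2 (inducible), turn it into prostaglandin H2, from which Ptges makes prostaglandin E2 and Hpgds prostaglandin D2. The 5-lipoxygenase Alox5, helped by its activating protein Alox5ap, makes leukotriene A4, which Lta4h turns into leukotriene B4, a neutrophil attractant, and Ltc4s into leukotriene C4, the parent of the cysteinyl leukotrienes. Pla2g7 is a secreted enzyme that breaks down platelet-activating factor, a related lipid mediator. Neutrophils are known as a source of leukotriene B4, and macrophages can run either route.

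The promoters of the 4 genes whose levels moved with time in the tests below are shown, since 2 of them (Ptgs2 and Ptges) fell and 1 (Hpgds) rose in the same macrophage sums, and Ltc4s rose in neutrophils. Each line gives the 250 bases before the RefSeq start site, 5′ to 3′ on the gene's strand (build GRCm38.p6). Capitals mark matches, on either strand, to a TATA box (TATAAA), a CRE half-site (TGACG), an E-box (CACGTG), a C/EBP palindrome (TTGCGCAA), a GC box (GGGCGG), a PU.1 core (GAGGAAGT) or a kappa B site.
Ptgs2, chr1:150099781-150100030, plus strand: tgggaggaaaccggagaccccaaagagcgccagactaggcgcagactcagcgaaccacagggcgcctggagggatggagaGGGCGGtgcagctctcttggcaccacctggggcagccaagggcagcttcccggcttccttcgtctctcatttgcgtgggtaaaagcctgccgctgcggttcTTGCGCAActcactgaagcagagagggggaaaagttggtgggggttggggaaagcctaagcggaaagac
Ptges, chr2:30903298-30903547, minus strand: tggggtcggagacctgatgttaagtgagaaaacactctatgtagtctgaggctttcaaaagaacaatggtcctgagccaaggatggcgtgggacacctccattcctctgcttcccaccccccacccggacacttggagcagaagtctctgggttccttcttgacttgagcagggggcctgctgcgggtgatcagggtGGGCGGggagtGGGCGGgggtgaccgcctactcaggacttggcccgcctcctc
Hpgds, chr6:65144731-65144980, minus strand: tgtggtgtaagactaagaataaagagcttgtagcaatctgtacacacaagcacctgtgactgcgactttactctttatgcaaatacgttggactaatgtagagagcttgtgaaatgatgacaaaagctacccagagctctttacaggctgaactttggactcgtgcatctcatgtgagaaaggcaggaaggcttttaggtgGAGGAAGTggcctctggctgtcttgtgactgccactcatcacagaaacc
Ltc4s, chr11:50238533-50238782, minus strand: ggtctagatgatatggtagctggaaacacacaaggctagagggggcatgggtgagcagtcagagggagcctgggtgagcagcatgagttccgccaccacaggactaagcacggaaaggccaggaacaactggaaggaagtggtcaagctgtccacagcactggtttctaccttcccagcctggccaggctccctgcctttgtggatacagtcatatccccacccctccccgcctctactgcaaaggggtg
Ptgs2 also holds a CRE half-site and an E-box that share 2 bases just after its start, within chr1:150100036-150100063.
Ptgs2 start: caccactaCGTCACGTGgagtccgcttt

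The motif letters were chosen with these sequences in view, and a match is a description of letters, not a binding site. The C/EBP palindrome of Ptgs2, 69 bases before the start, occurs in 0.183% of the 32851 promoters of the table when 300 bases are searched (250 before and 50 after the start). The CRE half-site occurs in 20.8%, the E-box in 7.15%, the GC box in 35.7% and the PU.1 core, found 49 bases before the Hpgds start and 24 before that of Ptgs1, in 3.2%. The kappa B letters, in 8.46% of promoters, and the TATA letters, in 13.6%, were in none of the 8 members with an entry. The Ltc4s window held none of these letters. Alox5ap had no entry.

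The genes lie, by the GENCODE M21 annotation of the same build, at chr2:36230426-36252272 (Ptgs1, plus strand), chr1:150100031-150108227 (Ptgs2, plus), chr2:30889471-30929863 (Ptges, minus), chr6:65117293-65144908 (Hpgds, minus), chr6:116410077-116461178 (Alox5, minus), chr5:149264767-149288153 (Alox5ap, plus), chr10:93453411-93484875 (Lta4h, plus), chr11:50236461-50238616 (Ltc4s, minus) and chr17:43568098-43612201 (Pla2g7, plus). All are protein coding. The RefSeq starts of Ptges, Hpgds and Ltc4s lie inside the annotated gene, so part of each printed window is transcribed in some annotated form.

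Levels are given as UMIs (unique molecular identifiers, each counting a captured transcript) per 1000000 UMIs (CPM), summed over the cells of a class in a sample. Cells were assigned to classes by clusters built without the 9 genes and without other genes of the pathway. Neutrophil sums held 40 to 993 cells (104690 to 4050728 UMIs) and monocyte/macrophage sums 228 to 1352 cells (2320049 to 42394704 UMIs), leaving out sums under 30 cells (neutrophils at steady state, 7 cells, and on day 7, 29 cells). Neutrophil marker genes summed to between 54093 and 238767 CPM in the neutrophil sums. In the monocyte/macrophage sums they stayed between 161 and 2440 CPM except on day 1 of the CD45+ experiment, with 19694 CPM and all 17 markers detected. Monocyte/macrophage markers summed to 14965 to 19049 CPM in the CD45+ neutrophils and 7015 to 11072 CPM in the pool's. At most 2 barcodes were shared between any pair of CD45+ libraries, and 28 between the pools.

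**Figure D1:**
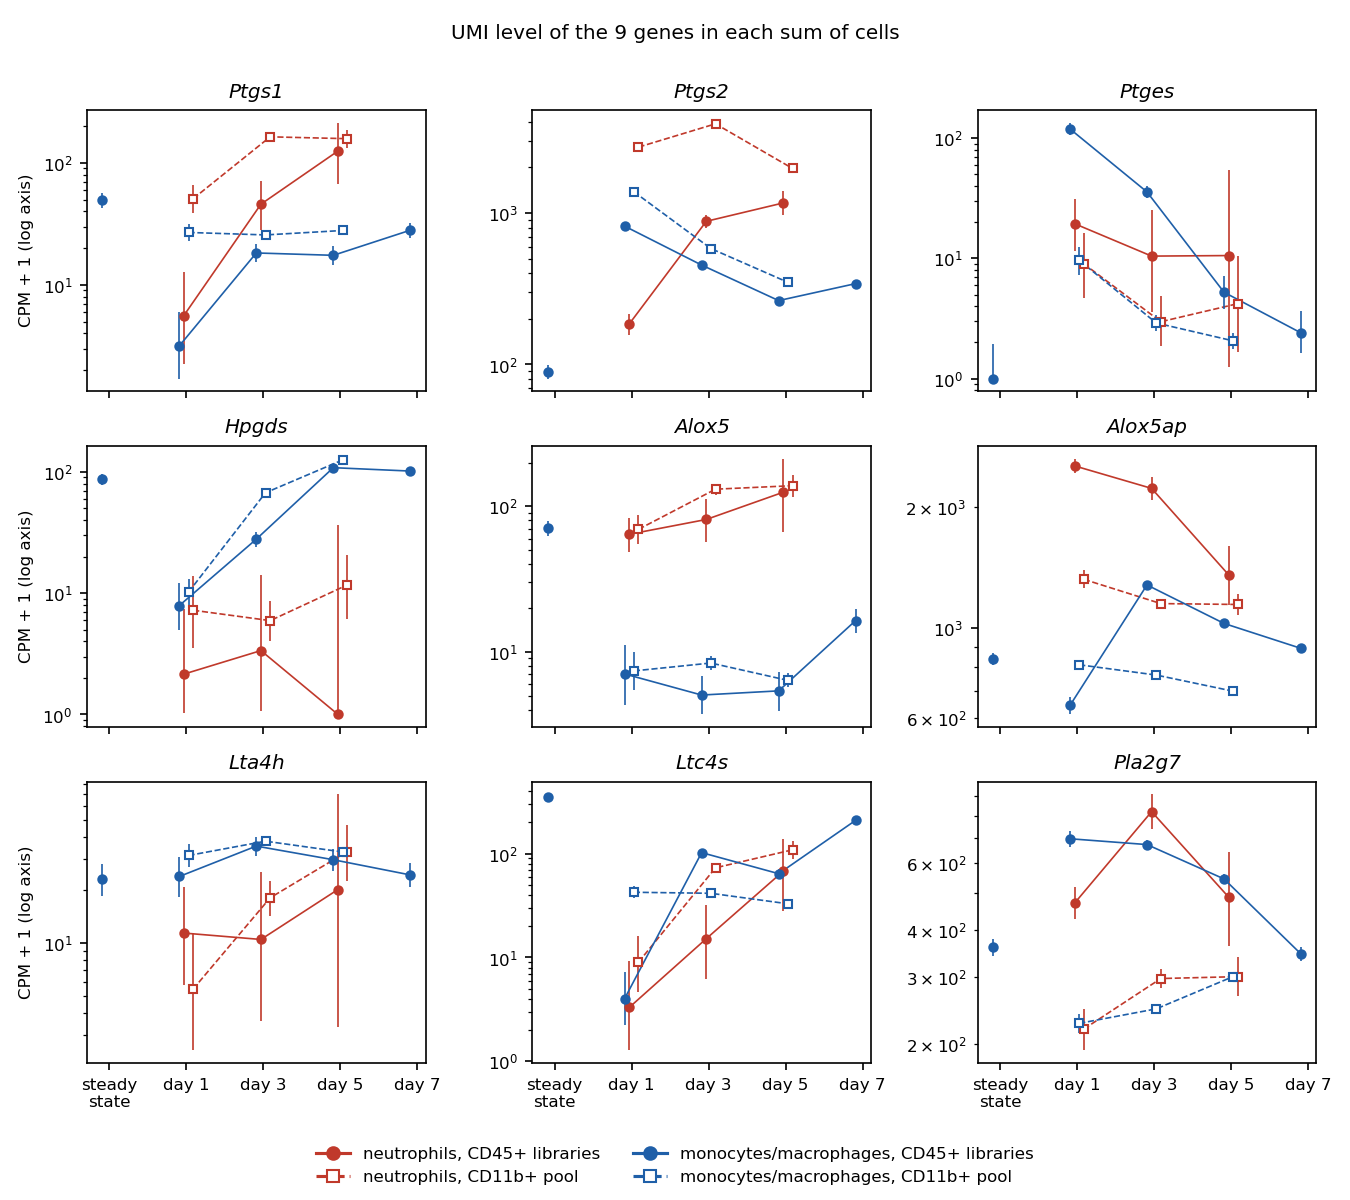
Level of each gene (CPM + 1, log axis) at steady state and days 1 to 7 in neutrophils (red) and monocytes/macrophages (blue), for the CD45+ libraries (filled circles) and the CD11b+ pool (open squares). Bars are exact 95% Poisson intervals, which cover counting error only, and each point is 1 sum of cells. Ptgs2 and Ptges of monocytes/macrophages decline from day 1 to day 5 in both experiments while Hpgds increases.

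In monocytes and macrophages the cyclooxygenase Ptgs2 and the prostaglandin E2 synthase Ptges fell from day 1 to day 5 after infarction, while the prostaglandin D2 synthase Hpgds rose. These 3 members passed the test among the 9, against 9.7% of all 10591 genes tested (5.51% lower and 4.18% higher on day 5). The other 6 members did not pass. In the CD45+ experiment 226 of the 246 cells of day 1 lay in an Arg1-high cluster that held only 5 cells of the later days, so the change within the class compares different clusters there. The sums of the CD45+ experiment and of the pool served as the 2 replicates of a day, each of pooled mice. With experiment as a block, the tests measure how far the changes between days differ between the experiments, not the spread between mice.

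Ptgs2 stood at 819 CPM (CD45+) and 1382 CPM (pool) on day 1, 452 and 582 CPM on day 3, and 263 and 348 CPM on day 5. Both day 1 sums lay above both day 3 sums, and these above both day 5 sums. The fitted log2 change from day 1 to day 5 was -2.06 (SE 0.17, adjusted p = 0.0059, edgeR quasi-likelihood test with Benjamini-Hochberg adjustment, n = 2 sums a day). The step from day 1 to day 3 was -1.28 (SE 0.16) and missed the threshold with an adjusted p of 0.0512. After thinning every cell to 1500 UMIs, Ptgs2 was seen in 41.5% (CD45+, 246 cells) and 57.3% (pool, 227 cells) of monocytes/macrophages on day 1, and in 23.9% and 26.1% on day 5 (732 and 1340 cells). Unthinned, these shares were 72.4%, 86%, 47.7% and 67.8%, at median depths of 9104.5, 22343.5, 8160.5 and 28381.5 UMIs. In lymphocytes of the CD45+ libraries, which are not known for Ptgs2, thinned shares were 0% to 6.45% at median depths of 2833.5 to 4440 UMIs.

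Ptges was far more abundant in the CD45+ experiment than in the pool on day 1, and fell in each. It stood at 118 and 8.63 CPM on day 1, 34.7 and 1.9 CPM on day 3, and 4.23 and 1.06 CPM on day 5, so the sums of different days overlap across experiments but not within them. The log2 change from day 1 to day 5 was -5.08 within the CD45+ libraries and -3.22 within the pool, with a fitted value of -4.10 (SE 0.55, edgeR adjusted p = 0.0147). The CD45+ day 1 sum, which gives the highest Ptges value, is the sum with 19694 CPM of neutrophil markers. The neutrophils of that library held 18.4 CPM of Ptges (73.1 CPM with classes from each cell's own markers). Their part in the Ptges value of that sum was not tested. Without the clusters that were named only from markers of a state, an alternative added after the data were seen, the Ptges change became -2.67 with an edgeR adjusted p of 0.0506. That fit has no CD45+ day 1 sum of the class, and Ptgs2 and Hpgds passed in it.

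Hpgds moved the other way. It stood at 6.9 and 9.2 CPM on day 1, 26.9 and 66.3 CPM on day 3, and 107 and 124 CPM on day 5, and no sum of a later day overlapped with an earlier one. The fitted change from day 1 to day 5 was 3.67 (SE 0.34, edgeR adjusted p = 0.00744), and 3.62 and 3.55 within the CD45+ libraries and the pool. The day 3 value, 2.28 above day 1 (SE 0.34), had an adjusted p of 0.0594. Mast cells also carry Hpgds. In these 6 sums the mast cell genes Mcpt4, Cma1, Fcer1a and Ms4a2 were at 0, and the mast cell list summed to 13.9 to 50.7 CPM. That sum came from the rest of the list (Cpa3, Kit, Tpsb2 and Hdc), of which Hdc is also on the neutrophil list. The part of mast cells in the Hpgds values was not tested.

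No member passed from day 3 to day 5 (edgeR, 0.0283% of all genes called) or from day 1 to day 3 (0.0944%, with 0.00944% higher and 0.085% lower on day 3). Ptgs2, Ptges and Hpgds had an unadjusted p under 0.05 in each of these contrasts (3 of 9 members), and DESeq2 called 2 and 3 members. Between day 3 and day 5 the log2 values were -0.79 for Ptgs2 (edgeR adjusted p = 0.361), -1.93 for Ptges (0.469) and 1.39 for Hpgds (0.361). Without the day 1 pool sum 6 members passed from day 1 to day 3, and without the CD45+ day 1 sum 2 did.

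Ptgs1, the constitutive cyclooxygenase, followed no shared course in monocytes and macrophages. It stood at 25.9, 24.7 and 26.9 CPM on days 1, 3 and 5 of the pool, and at 2.16, 17.3 and 16.5 CPM in the CD45+ libraries, where the day 1 sum rested on 5 UMIs. The fitted change from day 1 to day 5 was 0.49 (SE 0.56, edgeR adjusted p = 0.583). Ltc4s, which makes leukotriene C4, also differed between the experiments: 41.5, 40.5 and 31.9 CPM in the pool against 3.02, 101 and 63.1 CPM in the CD45+ libraries, with 7 UMIs on day 1. Its log2 change from day 1 to day 5 was 3.99 in the CD45+ libraries and -0.58 in the pool.

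The remaining leukotriene genes and Pla2g7 did not pass in monocytes and macrophages. Alox5 stayed low, between 4.04 and 7.36 CPM in the 6 sums. Alox5ap lay between 643 and 1280 CPM, and the leukotriene B4 synthase Lta4h between 22.8 and 36.9 CPM. Pla2g7 stood at 695, 671 and 544 CPM in the CD45+ libraries and at 226, 247 and 300 CPM in the pool, so the experiments differed more than the days. From day 1 to day 5 the fitted log2 changes of these 4 genes ran from -0.57 (Alox5) to -0.05 (Alox5ap), with edgeR adjusted p of 0.296 or above.

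**Figure D2:**
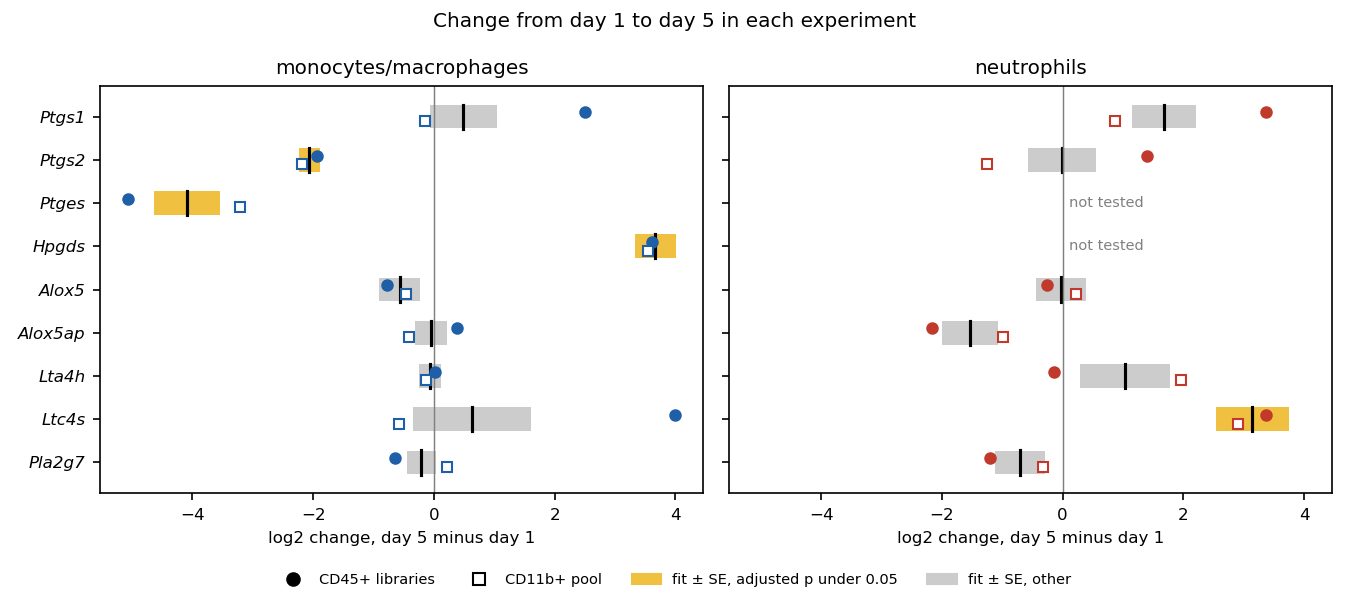
Log2 change from day 1 to day 5 (x axis) for each gene (y axis), within the CD45+ libraries (circles) and within the CD11b+ pool (squares), in monocytes/macrophages and in neutrophils. Black lines and bars are the fitted change ± SE, yellow where the adjusted p is under 0.05. Ptgs2, Ptges and Hpgds pass in monocytes/macrophages and Ltc4s in neutrophils, while Ptgs2 of neutrophils lies at 1.39 and -1.25 in the 2 experiments.

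Steady state and day 7 had 1 CD45+ library each and so no test. Uninjured hearts held 48.6 CPM of Ptgs1, 88.7 of Ptgs2, 70.1 of Alox5 and 353 of Ltc4s in their monocytes and macrophages, and the day 7 library held 27.1, 341, 15.4 and 209 CPM. For these 4 members the exact 95% Poisson intervals did not overlap, among 8 members with at least 10 UMIs, and the same held for 32.4% of 10915 genes (16.5% higher and 15.9% lower on day 7). Ptges was not detected at steady state (0 of 3866527 UMIs, with an upper limit of 0.776 CPM from 3 counts) and stood at 1.4 CPM on day 7. Hpgds was at 86.1 CPM at steady state and 101 CPM on day 7, Alox5ap at 840 and 891 CPM, and Pla2g7 at 359 and 344 CPM. In the day 7 sum all 8 mast cell markers were detected (158 CPM), against 6 of 8 (8.02 CPM) at steady state, and their part in the Hpgds and Ltc4s values was not tested.

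Neutrophils differed from monocytes and macrophages in 6 of the 9 members over the 6 samples that held both classes, against 56.3% of all 8533 genes tested. That count is near the share of all genes, so it does not set the members apart as a group. Alox5, Ptgs1, Ptgs2 and Alox5ap were higher in neutrophils (25% of all genes), and Hpgds and Lta4h were lower (31.3%). As a share of UMIs, neutrophils were thus higher in both cyclooxygenases and in Alox5 and Alox5ap. They were lower in Hpgds and, by a call lost in several alternatives, in Lta4h. These are shares, not amounts per cell. Median depth on day 3 of the pool was 3837 UMIs in neutrophils and 28694 in monocytes/macrophages.

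Alox5, the 5-lipoxygenase, showed the most even difference. It lay between 63.3 and 138 CPM in the 6 neutrophil sums and between 4.04 and 7.36 CPM in the 6 monocyte/macrophage sums, without overlap. After TMM scaling, used for all differences within a sample or experiment here, the log2 difference was 4.20 to 4.79 in each of the 6 samples, and 4.53 in the fit (SE 0.22, edgeR adjusted p = 3.32e-10). Its partner Alox5ap was higher in neutrophils in 6 of 6 samples by 0.21 to 2.82 (fit 1.24, SE 0.28, adjusted p = 0.00135). Both genes of this step were thus higher in neutrophils, whereas Lta4h, which takes leukotriene A4 onward, was 0.73 lower in the fit (SE 0.28, edgeR adjusted p = 0.0362). Lta4h was lower in neutrophils in 5 of 6 samples, and its call was lost without the day 1 pool sums (-0.53, edgeR adjusted p = 0.118), without the sums of CD45+ day 3, CD45+ day 5 or pool day 3 (0.0507 to 0.0918), with classes from each cell's own markers and without the block for samples.

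Ptgs1 was higher in neutrophils in 6 of 6 samples, by 1.78 to 3.07 (fit 2.40, SE 0.25, edgeR adjusted p = 8.43e-07). Ptgs2 was higher in 5 of 6, by 1.44 to 3.09, and lower by 1.30 on day 1 of the CD45+ experiment (fit 1.70, SE 0.42, edgeR adjusted p = 0.00268). In that pair the monocyte/macrophage sum held the high neutrophil markers and 819 CPM of Ptgs2, and the neutrophils held 184 CPM of Ptgs2. The part of neutrophil transcripts in this difference was not tested. Hpgds was lower in neutrophils in 5 of 6 samples and 0.35 higher on day 1 of the pool, though lower there before scaling, at 6.23 against 9.2 CPM (fit -2.85, SE 0.48, edgeR adjusted p = 0.000121). Ptges (-0.40), Ltc4s (0.15) and Pla2g7 (0.37) did not pass, and for Ltc4s the difference ran from -2.24 to 1.80 over the samples.

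**Figure D3:**
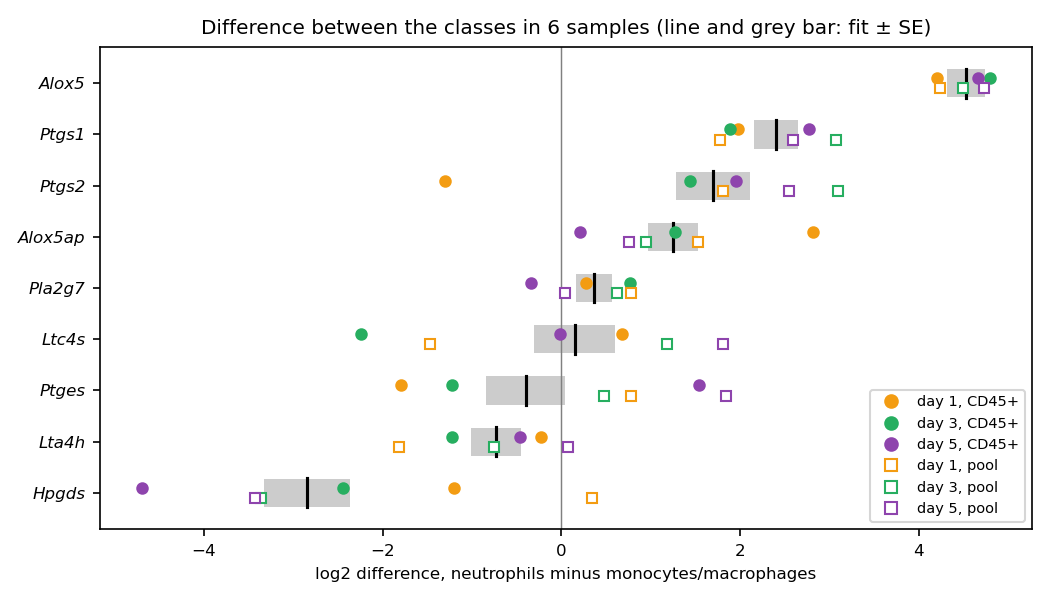
Log2 difference between neutrophils and monocytes/macrophages (x axis) for each gene (y axis) in the 6 samples, coloured by day, with circles for the CD45+ libraries and squares for the CD11b+ pool. Black lines and grey bars are the fit ± SE. All 6 points of Alox5 lie between 4.20 and 4.79, while those of Ltc4s lie on both sides of 0.

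Within neutrophils, Ltc4s rose with time and no other member passed. It stood at 2.3 CPM (CD45+) and 8.01 CPM (pool) on day 1, 14.2 and 72.1 CPM on day 3, and 66.9 and 108 CPM on day 5. Both day 5 sums lay above both day 1 sums, but the CD45+ sums rest on 2, 6 and 7 UMIs. The log2 change was 2.36 from day 1 to day 3 (SE 0.59, edgeR adjusted p = 0.0483; 1.99% of 6223 genes passed, 0.37% higher and 1.62% lower) and 3.14 from day 1 to day 5 (SE 0.61, adjusted p = 0.00714; 7.15% passed, 1.91% higher and 5.24% lower). The test covered 7 members, since Ptges and Hpgds were too low in neutrophils. Of the CD45+ neutrophils, 4 of 216 on day 1, 131 of 135 on day 3 and all 40 on day 5 lay in the same cluster. The other CD45+ neutrophil cluster was led by Ngp and Retnlg, so changes of any member from day 1 compare different clusters there. The earlier call was lost with DESeq2 (adjusted p = 0.0719) and without the day 3 pool sum (log2 change 1.56, edgeR adjusted p = 0.754), the day 1 pool sum (0.112) or either day 5 sum (0.0529 and 0.0677). The later call was lost without the day 5 CD45+ sum (0.0629) or the day 5 pool sum (0.0574, log2 change 3.88). Both calls were also lost with classes from each cell's own markers (edgeR adjusted p = 0.15 and 0.0663) and without the experiment block (0.819 and 0.367). Eosinophil, basophil and platelet markers, of cells that can also make leukotriene C4 or thromboxane, summed to at most 10.1, 0.247 and 21.9 CPM in the neutrophil sums, and the mast cell list to between 984 and 1773 CPM, with 1 to 3 of its 8 genes detected. Hdc, which is on the neutrophil list too, was detected in each of these sums, while Mcpt4, Tpsb2, Cma1, Fcer1a and Ms4a2 were at 0 in all 6. The part of these cells in the Ltc4s values was not tested.

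In neutrophils the scaling of the sums bears on every change over time. TMM, which sets the median gene near no change, gave factors from 0.535 (CD45+ day 1) to 1.47 (pool day 5), so that fitted changes lie below the ratios of the CPM values. With scaling by total counts only, which placed the median log2 change of all genes at 0.69 (day 3) and 0.90 (day 5), 436 of 496 and 1201 of 1300 genes passing were higher, against 23 of 124 and 119 of 445 with TMM. Under that scaling Ltc4s rose by 3.01 and 4.06 on the log2 scale (edgeR adjusted p = 0.0135 and 0.00183), and Ptgs1, which did not pass with TMM, rose by 2.09 and 2.65 (adjusted p = 0.0315 and 0.00697).

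Ptgs1 and Alox5ap of neutrophils did not pass with TMM. Ptgs1 stood at 4.6 and 49.8 CPM on day 1, 44.9 and 163 CPM on day 3, and 124 and 157 CPM on day 5, a fitted change of 1.68 to day 5 (SE 0.54, edgeR adjusted p = 0.0685). Alox5ap stood at 2527 and 1322 CPM on day 1, 2222 and 1151 CPM on day 3, and 1356 and 1145 CPM on day 5, a fitted change of -1.53 (SE 0.46, adjusted p = 0.055). The sign of each difference was the same in the 2 experiments. With total counts only, the Alox5ap value was -0.52 (adjusted p = 0.318). Alox5 stood at 63.3 and 68.5 CPM on day 1, 80.3 and 130 CPM on day 3, and 124 and 138 CPM on day 5, which gave a fitted change to day 5 of -0.02 with TMM (SE 0.42) and 0.98 with total counts only (edgeR adjusted p = 0.091). With classes from each cell's own markers, the CD45+ day 1 level was 1603 CPM for Alox5ap, below that of day 3, and 31.8 CPM for Alox5. Pla2g7 stood at 470 and 218 CPM on day 1, 819 and 297 CPM on day 3, and 487 and 300 CPM on day 5, and its change to day 5 was -0.71 with TMM (edgeR adjusted p = 0.32) and 0.30 with total counts only, so its sign depends on the scaling. Lta4h stood at 4.45 to 32 CPM over the 6 sums.

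Ptgs2 of neutrophils took different courses in the experiments. It stood at 184, 881 and 1165 CPM on days 1, 3 and 5 of the CD45+ libraries and at 2725, 3883 and 1970 CPM in the pool. Every pool sum lay above every CD45+ sum. The fitted change from day 1 to day 5 was -0.02 with TMM (SE 0.56, edgeR adjusted p = 0.989) and 1.03 with total counts only (adjusted p = 0.2). A sum of 10 immediate early and heat shock genes (Fos, Fosb, Jun, Junb, Egr1, Atf3, Ier2, Dusp1, Hspa1a and Hspa1b, a list chosen after the values were seen), which handling of cells can raise, stood at 3625, 6456 and 8148 CPM in the same CD45+ sums and at 12667, 10735 and 8591 CPM in those of the pool. It was thus low where Ptgs2 was low in the CD45+ neutrophils, and its part in the Ptgs2 values was not tested. In monocytes and macrophages the sum was 3579, 3722 and 5678 CPM (CD45+) and 3718, 4410 and 4789 CPM (pool), higher on day 5, when Ptgs2 was lower, and it was 17198 CPM at steady state, where Ptgs2 was lowest.

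From day 3 to day 5 no neutrophil member passed (edgeR, 0% of genes), none had an unadjusted p under 0.05, and 137 genes did. DESeq2 called 1 gene there and 0 members. The change over time was not shown to differ between the classes for any member, with 0.0197%, 0.591% and 0% of 10153 genes passing the edgeR interaction for day 3 against day 1, day 5 against day 1 and day 5 against day 3. Unadjusted p under 0.05 came for 2, 3 and 0 members, and DESeq2 called 1, 2 and 0. The 3 members from day 1 to day 5 were Hpgds (-3.78, SE 0.88, edgeR adjusted p = 0.0683), Alox5ap (-1.57, SE 0.49, adjusted p = 0.153) and Ptgs2 (1.95, SE 0.66, adjusted p = 0.181), each as neutrophils minus monocytes/macrophages.

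Monocytes and macrophages were then split into states, clusters named from fixed markers. Ly6c2-high monocytes, which are recently arrived blood monocytes, held more Ptgs2 and less Hpgds than the other cells of the class in 6 of 6 samples. The mean log2(CPM + 1) difference was 0.99 for Ptgs2 and -2.02 for Hpgds. Ltc4s was lower in 5 of 6 (-2.24) and Ptgs1 in 5 of 6, while Alox5ap (0.52) and Pla2g7 (0.44) were higher in 5 of 6. None passed an exact two-sided sign-flip permutation test after adjustment over 9 members (lowest adjusted p = 0.0804), and with 6 samples the smallest unadjusted p the test can give is 0.0312, reached by Ptgs2 and Hpgds. At the finer Leiden resolution of 1.0 the state held different cells and 6 members passed, Hpgds among them and Ptgs2 not (adjusted p = 0.0804).

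Macrophages high in Trem2 and Gpnmb, genes of lipid-handling macrophages, carried Hpgds. It stood at 54.4, 132 and 106 CPM on days 3, 5 and 7 of the CD45+ libraries and at 88.7 and 139 CPM on days 3 and 5 of the pool, above the other cells of the class in 5 of 5 samples (mean log2 difference 1.06). The mast cell gene Cma1 was among the leading genes of this CD45+ cluster when the clusters named from state markers were left out. On day 7 the whole class held 158 CPM of mast cell markers, and their part in the day 7 value of this state was not tested. MHC II-high macrophages of the pool held 122 and 168 CPM of Hpgds on days 3 and 5 and the least Ptgs2 of the pool's states, 34.5 and 21.3 CPM. Proliferating macrophages of the pool held 83.7 and 121 CPM of Hpgds with 171 and 139 CPM of Ptgs2. So Hpgds was higher on day 5 than on day 3 within each of these states, and also within Ly6c2-high monocytes of the pool (22.2 and 60.8 CPM, after 6 CPM on day 1), but not within those of the CD45+ libraries (13.3, 11.8 and 12.7 CPM on days 3, 5 and 7).

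Arg1-high inflammatory cells of the pool had high values of several members. These 49, 48 and 31 cells, led by Saa3, Ccl24 and Il6, held 1335, 1937 and 1257 CPM of Ptgs2 on days 1, 3 and 5, and 117, 907 and 547 CPM of Ltc4s. They held 40.8, 177 and 201 CPM of Ptgs1 and 25.7, 18.1 and 10.1 CPM of Ptges. Ptgs2 was higher there than in the other cells of the class in 2 of 3 sums, but not on day 1 (1397 CPM in the other cells). The other monocyte/macrophage states of the pool held at most 3.43 CPM of Ptges and 43.2 CPM of Ltc4s. The Arg1-high cells of the CD45+ libraries were nearly all from day 1 (226 of 231) and had S100a8 and S100a9 among their leading genes, which are neutrophil genes. They held 807 CPM of Ptgs2 and 123 CPM of Ptges but 2.73 CPM of Ltc4s, so the state of this name differed between the experiments. A CD45+ cluster that took no name, led by Saa3 and Hp, held 186, 23.9 and 0 CPM of Ptges and 567, 145 and 177 CPM of Ltc4s on days 3, 5 and 7.

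At steady state most cells of the class fell into a cluster led by Hspa1a, Mgl2, Cbr2 and Folr2, of which 510 of 606 cells came from that library. Mgl2, Cbr2 and Folr2 are genes of resident cardiac macrophages. By the fixed markers this cluster was MHC II-high, and resident-type when the clusters named from state markers were left out. It held 365 CPM of Ltc4s, 72 of Alox5 and 49.9 of Ptgs1, with 81.5 CPM of Ptgs2. The 75 cells of this cluster on day 7 held 833, 68.8, 47.8 and 185 CPM of the same genes. No other monocyte/macrophage state exceeded 39.7 CPM of Alox5.

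**Figure D4:**
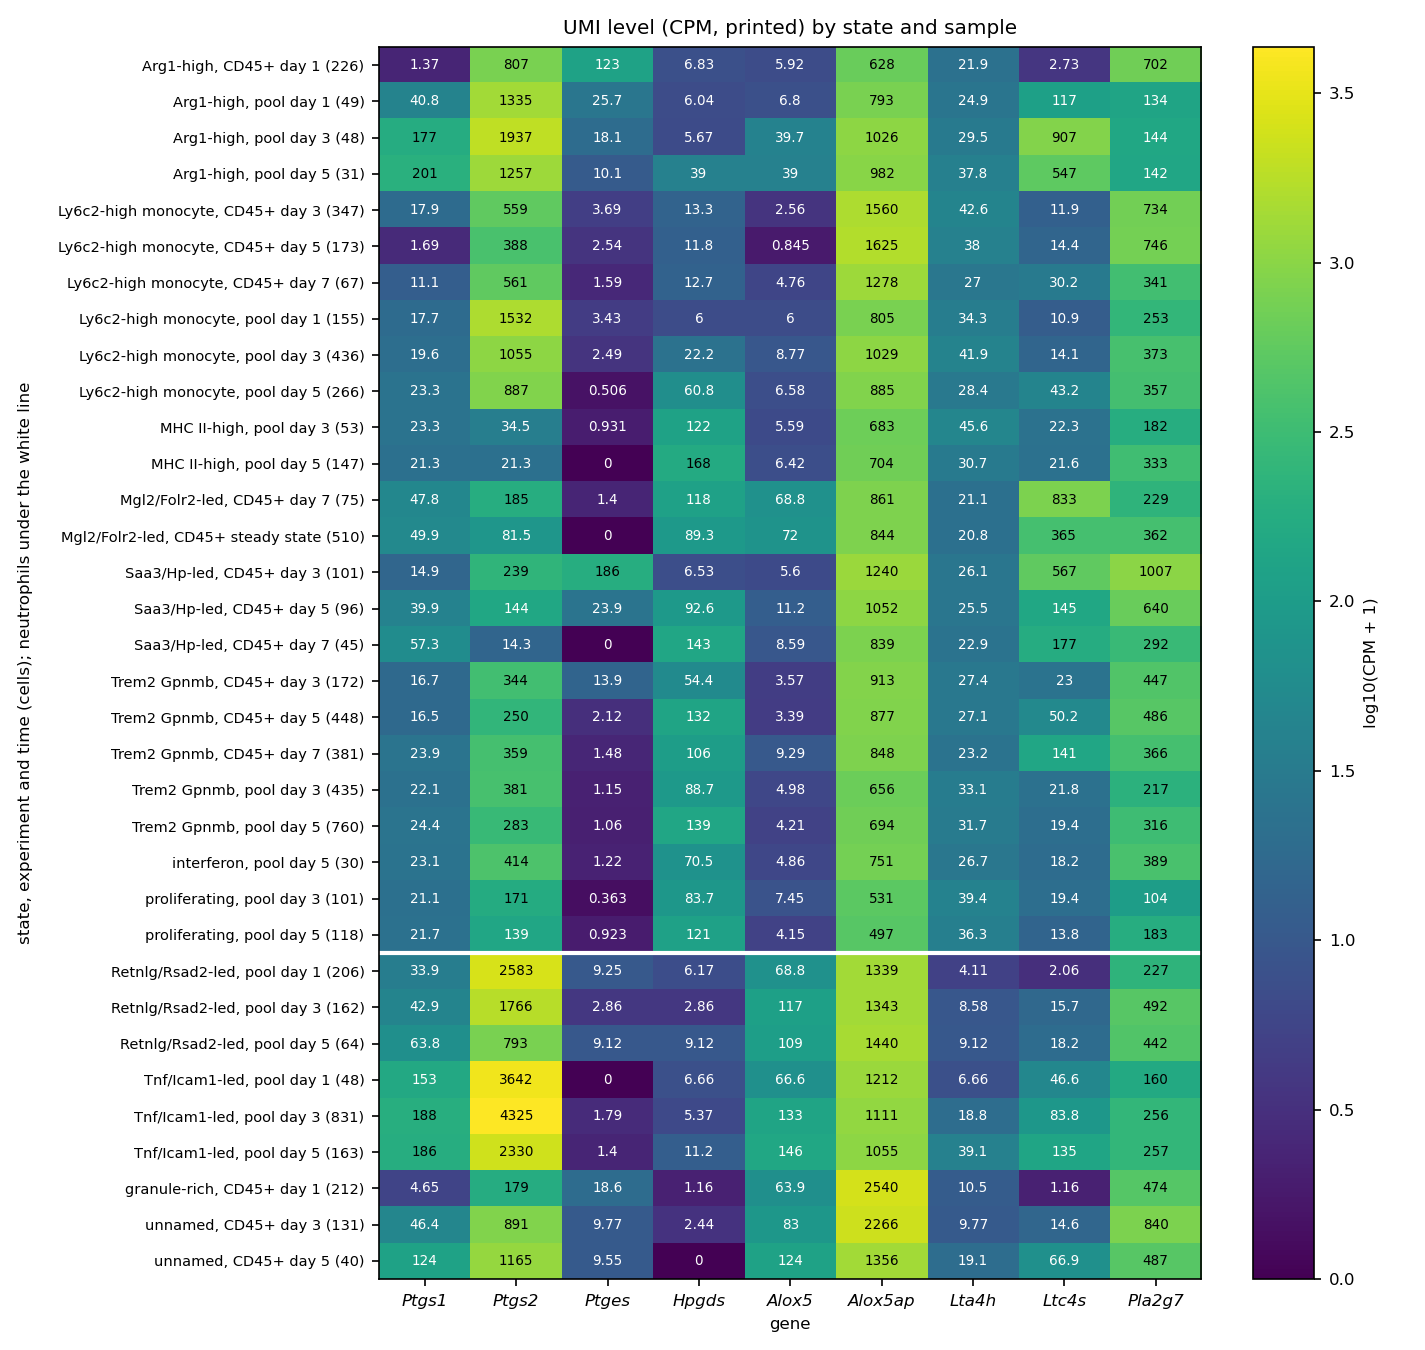
Level (CPM, printed in each cell, coloured by log10 of CPM + 1) of each gene (columns) by state and sample (rows, with the number of cells), monocytes/macrophages above the white line and neutrophils below it. Hpgds lies between 6 and 60.8 CPM in the Ly6c2-high rows and between 54.4 and 139 CPM in the Trem2 Gpnmb rows, and Ltc4s reaches 907 and 547 CPM in the Arg1-high pool rows of days 3 and 5 and 365 and 833 CPM in the rows led by Mgl2 and Folr2.

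Neutrophils of the pool formed a pair of clusters. Those led by Tnf and Icam1 (48, 831 and 163 cells on days 1, 3 and 5) held 3642, 4325 and 2330 CPM of Ptgs2. Those led by Retnlg and Rsad2 (206, 162 and 64 cells) held 2583, 1766 and 793 CPM. The fixed markers named the former Siglecf-high (4 markers of that list passing) and the latter interferon (5 passing). Ltc4s stood at 46.6, 83.8 and 135 CPM in the former and at 2.06, 15.7 and 18.2 CPM in the latter, and Ptgs1 at 153, 188 and 186 against 33.9, 42.9 and 63.8 CPM. Ptgs2, Ltc4s and Ptgs1 were higher in the Tnf- and Icam1-led cells on each of the 3 days, and Alox5ap and Pla2g7 were lower. Pla2g7 stood at 160, 256 and 257 CPM against 227, 492 and 442 CPM. The share of the former cluster among neutrophils was lowest on day 1, and Ltc4s was also higher on day 5 than on day 1 within each cluster. With 3 sums from 1 pool these differences have no test.

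Of 61 other genes of the pathway found in the annotation, fixed as a list of synthesis, breakdown and receptor genes, 37 were tested in monocytes and macrophages. From day 1 to day 5, 3 rose and 6 fell, where 4.18% of all genes rose and 5.51% fell (median log2 change 0.10, against -0.01 for all genes). The receptors Fpr2 (-2.65, SE 0.29, edgeR adjusted p = 0.0102), Ltb4r1, which binds leukotriene B4 (-2.56, SE 0.28, adjusted p = 0.0102), and Ptger2, which binds prostaglandin E2 (-1.68, SE 0.29, adjusted p = 0.0271), fell furthest. The phospholipase Pla2g15 (2.00), the glutathione transferase Mgst3 (1.54) and the prostaglandin and leukotriene reductase Ptgr1 (1.08) rose, with adjusted p of 0.0297, 0.019 and 0.0357. The other genes that fell were Pla2g4a, the cytosolic phospholipase that releases arachidonic acid, Abcc1 and Cmklr1. None of the 37 passed from day 1 to day 3 or from day 3 to day 5.

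In neutrophils 20 of these genes were tested. Mgst1 fell by day 3 (-2.47, SE 0.57, edgeR adjusted p = 0.0316) and by day 5 (-2.41, adjusted p = 0.0211). Fpr2 (-1.99) and Ltb4r1 (-2.53) fell by day 5, each with an adjusted p of 0.0126, and none rose. With total counts only these signs held and none of these calls did (edgeR adjusted p = 0.0566 to 0.0835). Under that scaling Cyp4f18, Dpep2 and Ptgr2 passed as higher on day 3, and these 3 with Akr1b3 and Cysltr1, a receptor of cysteinyl leukotrienes, on day 5 (2.22, edgeR adjusted p = 0.044, for Cysltr1), genes named after their values were seen. Against monocytes and macrophages, 7 of 32 genes were higher in neutrophils and 13 lower, beside 25% and 31.3% of all genes (median -0.59, against -0.13 for all genes). The higher ones included Ggt5, which processes leukotriene C4 (4.07, SE 0.34), Fpr2 (3.48, SE 0.29) and Ptafr, the receptor of platelet-activating factor (2.45, SE 0.22), with adjusted p of 1.85e-07 or below. The lowest were Cbr2 (-3.37, SE 0.44), Mgst3 (-3.14, SE 0.46) and Ptgr1 (-3.12, SE 0.34), with adjusted p of 3.19e-05 or below.

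The genes whose levels ran most like those of a member over the 12 sums were, among 2309 genes, Dedd2 (Pearson r = 0.995), Ltb (0.987) and Rabgef1 (0.984) for Alox5, Cwc25 (0.98), Krcc1 (0.977) and Pbxip1 (0.97) for Ptgs1, and Pde4b (0.954) and Nfkbie (0.924) for Ptgs2. The other 4 members eligible had a highest r of 0.967 (Lta4h with Uqcrc2), 0.935 (Pla2g7 with Tonsl), 0.929 (Ltc4s with B4galnt1) and 0.915 (Alox5ap with Arpc3). The sums share libraries and depth, and these values describe them only. They are sums of both classes, so for members that differ between the classes, such as Alox5 and Ptgs1, a high r can reflect that difference alone.

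In the blood and heart pool the members ranged over 7 hashtags as follows. Ptgs2 lay between 5.16 and 77.4 CPM in neutrophils (median 12.9) and between 0.156 and 16.9 CPM in monocytes/macrophages (median 0.242). Every one of these values lay below those of the other experiments in the same class, where the lowest were 184 and 88.7 CPM. The sum of the 10 immediate early and heat shock genes was 723 to 1599 CPM in its monocytes/macrophages and 2654 to 3501 CPM in its neutrophils, also below every sum of the digested hearts. Blood cells, handling and experiment cannot be told apart here. Alox5ap (1898 to 2439 CPM in neutrophils, 1407 to 1617 CPM in monocytes/macrophages) and Alox5 (125 to 178 and 7.53 to 17.4 CPM) kept the order of the classes, and Hpgds was at most 4.9 CPM in either. Ltc4s varied more between hashtags than these genes, from 0.223 to 55.3 CPM in neutrophils (median 2.82) and from 0.121 to 78.1 CPM in monocytes/macrophages (median 2.21), and so did Ptgs1 in neutrophils, from 5.44 to 124 CPM (median 11). Pla2g7 lay between 604 and 937 CPM in neutrophils and 164 and 408 CPM in monocytes/macrophages, and Lta4h between 12.3 and 29.7 and between 44.5 and 65.4 CPM.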

How the data were processed

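The authors deposited UMI counts per gene and cell barcode, from 10x 3′ libraries of CD45+ cells (chemistry version 2) and of the pools (version 3). Per the file headers, the pools came from Cell Ranger 3.0.2, and the version for the CD45+ libraries is not given in the sources used here. Reads were mapped to mm10 or GRCm38, per the submitters' processing notes. Members and lists were chosen with earlier results of these data known.

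A cell needed 200 detected genes, and no more than 10% of its UMIs could be mitochondrial. The mitochondrial limit removed 17.4% of barcodes of the CD11b+ pool. Scrublet (scikit-image 0.26.0, scanpy 1.11.5) removed 18 cells of the CD45+ libraries, and barcodes with several hashtags (6.28% and 12.5% of the pools) or none (7.81% and 1.4%) were left out. That left 4745, 4282 and 9999 cells. Leiden clusters (resolution 0.5, 2000 variable genes, 30 components, members and pathway genes left out) were named from markers: 3 or more in at least 20% of cells at 1.5-fold. States were named likewise, with 20 leading genes read. Clusters may therefore differ from the study's own.

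UMIs were summed per class, day and experiment (30 or more cells). edgeR 4.0.16 (TMM, filterByExpr, quasi-likelihood, experiment or sample as a block, Benjamini-Hochberg over all genes, threshold 0.05) tested them. The block sets the CD45+ libraries apart from the CD11b+ pool, which had its own sort and chemistry. The biological coefficient of variation was 31% in neutrophils and 19.6% in monocytes/macrophages. On simulated counts, 200 genes were set to change by 2 on the log2 scale. From day 1 to day 5, 70.4% of 196 were recovered in monocytes/macrophages (10415 genes tested), and 44.2% of 190 in neutrophils (5920 genes tested). The simulated coefficient of variation was 30%, with no difference between the experiments. These shares thus do not give the power of the real fits. Poisson intervals (95%) and limits from 3 counts cover counting error only. Members were always named, and other pathway genes were named as the 3 highest and 3 lowest past the threshold with a mean of at least 10 CPM. Genes of like pattern were the 3 of highest Pearson r among those with a mean of at least 50 CPM; those of 3 members are given, with 1 gene not reported here, and for 4 other members only the gene of highest r. State examples and leading genes were picked after their values were seen. Alternatives covered normalization, filter, DESeq2 1.42.0, clustering, class rule, mitochondrial limit, block and each sum left out.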

Additional observations from a re-analysis of the deposited data

Results flagged for a closer look

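Ptgs2 of neutrophils differed between day 5 and day 1 in opposite directions in the experiments: the log2 difference was 1.39 within the CD45+ libraries and -1.25 within the CD11b+ pool, after TMM scaling; the levels went from 184 to 1165 CPM and from 2725 to 1970 CPM. The difference between the experiments was not tested, since each has 1 sum per day. Each of the 4 sums held at least 10 UMIs of Ptgs2. Under classes from each cell's own markers, the CD45+ day 1 value was 408 CPM in place of 184 CPM.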

How the results depend on the processing

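Direction held in every alternative for the 25 member changes with an unadjusted p under 0.05: of 419 alternatives, 320 kept the side of the threshold, 21 lost the call, 78 gained it and 0 reversed. Over all members there were 133 sign changes in 1419 alternatives, 0 of them with a call. Without the replicate block no member passed in monocytes/macrophages from day 1 to day 5 (0 in place of 3; Ptgs2 adjusted p = 0.166, edgeR) or in neutrophils (0 in place of 1 for day 3 and for day 5). For day 5 against day 1 in neutrophils the count of members was 2 with at most 5% mitochondrial UMIs, 0 with classes from own markers, 3 with DESeq2 size factors, 3 with the DESeq2 test, 3 with no filter, 2 with these days alone and 2 with total counts only, and 0 to 3 with a sum left out (0 without either day 5 sum). For day 3 it was 0 with own markers, 0 with DESeq2, 2 with total counts only, and 0 to 2 with a sum left out. In monocytes/macrophages the day 3 count (0) became 1 with the 5% limit, 1 with own markers, 3 with DESeq2, 3 with no filter, 3 with these days alone, 2 without clusters named from state markers, and 0 to 6 with a sum left out. The day 5 count (3) was 3 to 5 with a sum left out. Day 5 against day 3 (0) gave 2 with DESeq2, 4 with these days alone, 3 without clusters named from state markers, and 0 to 4 with a sum left out. The interaction for day 3 (0) gave 1 with DESeq2, 2 with no filter and 2 without those clusters, and 0 to 3 with a sum left out. For day 5 (0) it gave 2 with DESeq2, 4 with no filter, 2 with total counts only, 3 without those clusters, and 0 to 3 with a sum left out. The class count (6) stayed at 5 or 6, the steady state and day 7 count (4) at 4 or 5, and the state count (0) became 6 at resolution 1.0. Counts of all genes passing moved more: 1027 from day 1 to day 5 in monocytes/macrophages became 0 to 2861, 10 to day 3 became 0 to 1248 and 3 from day 3 to day 5 became 0 to 1459. In neutrophils 124 and 445 became 0 to 496 and 0 to 1300, the 0 from day 3 to day 5 became 0 to 34, and the interactions (2, 60 and 0) became 0 to 196, 0 to 767 and 0 to 25. With a sum left out these reached 3141, 2196, 670, 700, 1029, 36, 647, 1205 and 162. With total counts only, 436 of 496 genes passing by day 3 and 1201 of 1300 by day 5 were higher in neutrophils (23 of 124 and 119 of 445 with TMM), 615 of 957 by day 5 in monocytes/macrophages (443 of 1027), 1233 of 4695 between the classes (2136 of 4804) and 743 of 767 in the day 5 interaction (35 of 60). Of 378 class levels recomputed, 39 moved beyond their counting interval and 5 by over 1.5 times, 4 of these in CD45+ day 1 neutrophils with own markers, and 147 of 468 state levels moved. Clustering with the members included and leaving out the clusters named from state markers were chosen after seeing the data. The cause of these changes was not tested. Depth limits Ltc4s of CD45+ neutrophils (2, 6 and 7 UMIs).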
